A study of Mus musculus with 12 samples.

Results

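10 genes of galactolipid and sphingolipid metabolism were followed in the RNA of purified mouse brain myelin from P18 over P75 and 6 months to 24 months of age. They were chosen by symbol as 6 genes of synthesis (Ugt8a, Gal3st1, Fa2h, Sptlc1, Sptlc2 and Elovl1) and 4 genes of breakdown (Galc, Arsa, Psap and Asah1), and each has 1 entry among the 21937 genes of the deposited table. All animals were wild type mice of the strain c57Bl6/N, which the study describes as male, and the ages differed in nothing else that the labels name. A membrane fraction rich in myelin was collected from brain homogenate on sucrose gradients, and 3 libraries were sequenced at each age, described for 6 months as coming from 3 single mice. The libraries held 20299052 to 27214385 reads on genes, and the fewest reads of any of the 10 genes in a library were 219, for Arsa in P18 replicate 2. P18 replicate 3 had the lowest Ugt8a, Gal3st1, Fa2h and Elovl1 of its age, and the changes of these genes from P18 to P75 are also given without it. A normalized read count is a read count divided by a size factor of its library and is not corrected for the length of the transcript. The fraction held mRNAs of other brain cells as well, since all 10 myelinating oligodendrocyte markers, all 8 neuronal, all 7 astrocytic and all 10 microglial markers were above 0 in every library.

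Myelin is unusually rich in galactolipids. Sphingolipid synthesis starts when serine palmitoyltransferase, a complex of Sptlc1 and Sptlc2, joins serine to a fatty acid, and it leads to ceramide. Elovl1 lengthens very long fatty acids and Fa2h adds a hydroxyl group to them, Ugt8a couples galactose to ceramide to form galactosylceramide, and Gal3st1 adds sulfate to form sulfatide. The lysosome runs the last steps backwards: Arsa removes the sulfate, Galc removes the galactose, and Asah1 splits the ceramide, with the small saposin proteins cut from Psap as their helpers. Loss of Arsa, Galc or Psap function causes leukodystrophies, in which myelin is lost.

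Between P18 and P75 the genes that make galactosylceramide and sulfatide and modify their fatty acids fell, and the breakdown genes rose. Ugt8a, Gal3st1, Fa2h and Elovl1 fell by 2.81-fold, 2.83-fold, 2.06-fold and 2.12-fold, while Galc, Arsa, Psap and Asah1 rose by 1.40-fold, 1.75-fold, 1.57-fold and 1.26-fold. The subunits of serine palmitoyltransferase, Sptlc1 and Sptlc2, went with the breakdown genes and rose by 1.18-fold and 1.26-fold. All 10 genes passed a false discovery rate of 0.1 (limma, Benjamini-Hochberg over 14634 genes), 6 higher and 4 lower, where 48.8% of all genes tested were called, 25.9% higher and 22.9% lower. A call at this threshold was thus common, and the size of the falls was not: in the main fit all 4 genes that fell did so by more than 2-fold, as did 1.73% of all genes. Over the alternatives the log2 change ran from -1.20 to -0.915 for Fa2h and from -1.18 to -0.960 for Elovl1. The falls of these 2 genes were thus below 2-fold in some settings. The libraries of the 2 ages did not overlap for any of the 10 genes, as for 47.7% of all genes. Without P18 replicate 3, 9 genes were called, all but Sptlc1.

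Between P75 and 6 months 8 of the 10 genes were called changed, all of them higher, where 60.6% of all genes were called, 31.2% higher and 29.4% lower. Asah1 showed the largest rise of the 10, by 1.99-fold, followed by Arsa at 1.46-fold, Psap at 1.40-fold and Ugt8a at 1.38-fold. Gal3st1 and Galc did not pass, with log2 changes of -0.23 (adjusted p = 0.263) and 0.09 (adjusted p = 0.441, limma for both). The count was 5 when P75 replicate 1, 6 months replicate 1 or 6 months replicate 2 was left out, with Ugt8a, Fa2h and Sptlc2 no longer called. It was 9 without P18 replicate 3, a library outside this comparison, with Gal3st1 called lower (adjusted p = 0.0814, limma).

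Between 6 and 24 months 1 of the 10 genes, Arsa, was called changed, against 29.3% of all genes, 16.6% higher and 12.7% lower. It rose by 1.21-fold. Of the 6 synthesis genes 0 passed in the main limma fit, where 2 had an unadjusted p under 0.05. On the recovered reads edgeR called 2 of them, Sptlc1 and Sptlc2, higher (adjusted p = 0.0783 and 0.0914), and DESeq2 called 0. A limma fit of only these 2 ages called Gal3st1 and Fa2h lower (adjusted p = 0.072 and 0.0961). Without P18 replicate 3 limma called Fa2h lower and Sptlc1 higher (adjusted p = 0.0775 and 0.0829). With limma Sptlc1 was also called higher without 24 months replicate 1, and Sptlc2 without 24 months replicate 3. Across the whole span, from P18 to 24 months, all 10 genes were called, again 6 higher and 4 lower, where 69% of all genes were called, 34.7% higher and 34.3% lower. From P75 to 24 months 7 were called, against 54.9% of all genes, 28.8% higher and 26.1% lower. Sptlc1, Sptlc2, Elovl1, Arsa, Psap and Asah1 rose and Gal3st1 fell. Galc was also called higher with edgeR (adjusted p = 0.0967) and with limma without P18 replicate 3 (adjusted p = 0.0930).

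**Figure D1:**
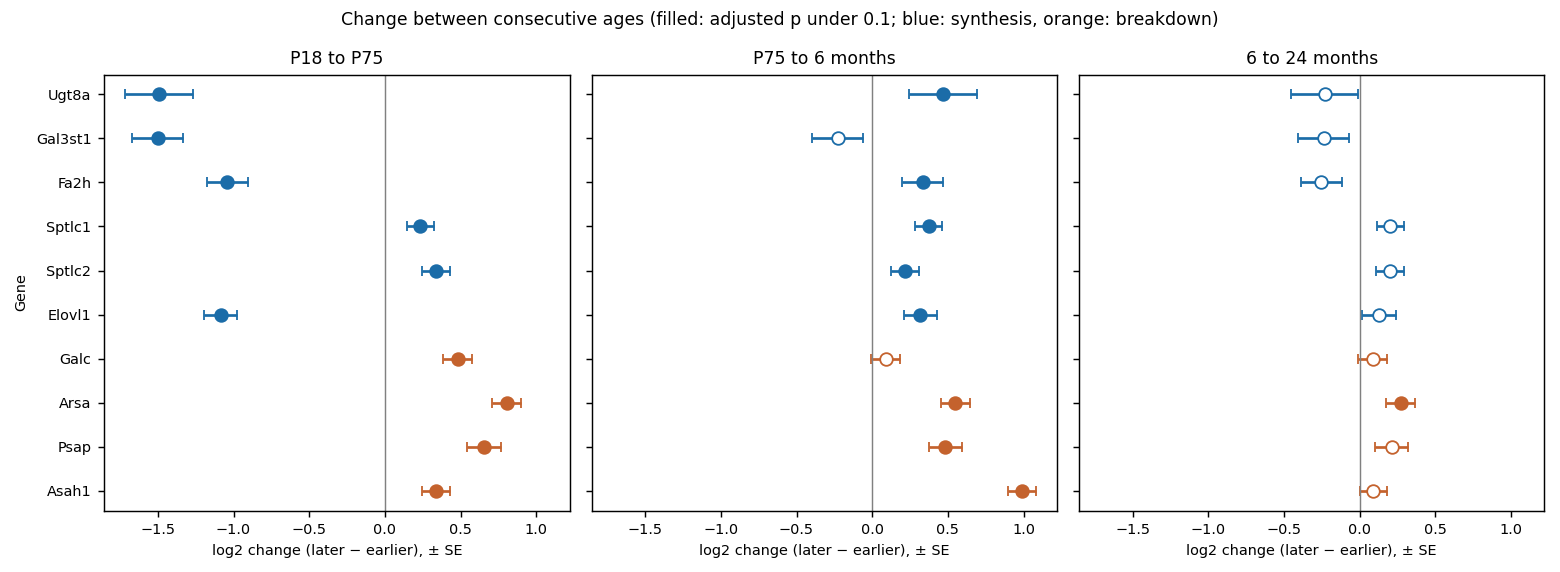
Change of each gene between consecutive ages, as the difference of mean log2(normalized read count + 1), later minus earlier, on the horizontal axis, with bars for the standard error from limma. Blue points are synthesis genes, orange points are breakdown genes, and filled points have an adjusted p under 0.1. In the left panel Ugt8a, Gal3st1, Fa2h and Elovl1 lie left of 0, in the middle panel all filled points lie right of 0, and in the right panel Arsa is the only filled point.

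The enzyme pair that makes and cleaves galactosylceramide is Ugt8a and Galc. In the build NCBIM37 (mm9) Ugt8a spans chr3:125568277-125641468 (minus strand, 6 merged exons) and Galc chr12:99440514-99497669 (minus strand, 18 merged exons). They changed in opposite directions between P18 and P75, and their start regions are shown for that reason. Each window holds the 250 bases before the RefSeq transcript start and the first 50 bases of the transcript, 5′ to 3′ on the gene's strand, at chr3:125938603-125938902 (minus strand) for Ugt8a and chr12:98259410-98259709 (minus strand) for Galc in GRCm38.p6. Capitals mark the GC box GGGCGG and the E-box CACGTG, found by exact match on both strands.
Ugt8a: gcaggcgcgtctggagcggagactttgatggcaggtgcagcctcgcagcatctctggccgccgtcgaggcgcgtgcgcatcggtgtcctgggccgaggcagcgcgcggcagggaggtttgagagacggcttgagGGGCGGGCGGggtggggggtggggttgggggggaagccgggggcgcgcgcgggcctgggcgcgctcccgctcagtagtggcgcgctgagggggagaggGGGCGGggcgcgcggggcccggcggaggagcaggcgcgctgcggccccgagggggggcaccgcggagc
Galc: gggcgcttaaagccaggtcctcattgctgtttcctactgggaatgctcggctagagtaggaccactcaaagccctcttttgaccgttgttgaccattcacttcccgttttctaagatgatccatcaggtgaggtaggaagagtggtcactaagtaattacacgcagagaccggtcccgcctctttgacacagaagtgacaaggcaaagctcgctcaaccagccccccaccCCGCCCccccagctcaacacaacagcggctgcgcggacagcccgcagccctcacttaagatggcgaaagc
The GC box was found 3 times in the window of Ugt8a, with 2 of the matches overlapping, and 1 time in that of Galc. It was present in 35.7% of 32851 mouse promoter windows of the same length, and the E-box, in 7.15% of them, was in neither.

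Ugt8a had normalized read counts of 10949, 9815 and 5029 in the 3 libraries at P18 and of 2982, 2417 and 3374 at P75. It had 4238, 3947 and 3847 at 6 months, then 2622, 3688 and 4110 at 24 months. P18 replicate 3 was thus far below the other libraries of its age but still above every later library, and the libraries at 24 months spread over the values of P75 and 6 months. The log2 change was -1.49 ± 0.224 (SE, adjusted p = 8.34e-05, limma) from P18 to P75, and -1.84 without P18 replicate 3. The rise of 0.47 ± 0.224 to 6 months had an adjusted p of 0.0889, which over the alternatives ran from 0.00221 to 0.283. With the replicate number as a block it was 0.109 and with DESeq2 0.151. The call was lost under 11 alternatives, quantile normalization and leaving out any 1 library of 6 months among them. The change from 6 to 24 months was -0.23 ± 0.224 (adjusted p = 0.492, limma).

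Galc, the lysosomal enzyme that removes galactose, moved less. It had 402, 394 and 342 normalized read counts at P18 and 528, 497 and 562 at P75. At 6 months it had 610, 531 and 548, and at 24 months 576, 599 and 616. Its libraries at P18 were below those of every later age, whereas the later ages adjacent to each other overlapped. The rise from P18 to P75 was 0.48 ± 0.094 on the log2 scale (adjusted p = 0.000756, limma), and the 2 later steps, of 0.09 each, did not pass (adjusted p = 0.441 and 0.547). The ratio of Ugt8a to Galc within a library, which does not depend on the size factors, was 22.3 ± 6.66 (SD, n = 3) at P18, 5.51 ± 0.585 at P75, 7.13 ± 0.264 at 6 months, then 5.79 ± 1.10 at 24 months. The ratios at P18, of 14.7 to 27.3, were above those of all other ages, and those at 6 months, of 6.95 to 7.44, were above those of P75 and 24 months, which overlapped. Ratios of 2 genes, here and below, are not corrected for exon length. Their shift between ages can be read, and whether they lie above or below 1 has no meaning.

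The sulfatide pair is Gal3st1, which adds the sulfate, and Arsa, which removes it. In NCBIM37 Gal3st1 spans chr11:3883639-3899329 (plus strand, 5 merged exons). Arsa spans chr15:89302907-89307856 (minus strand), and some of its 7 merged exons overlap exons of the lincRNA C230037L18Rik on the other strand. Whether reads were counted by strand is not given in the sources used here. How reads of the shared stretch were counted, and with it the level of Arsa, is therefore uncertain. Per kb of merged exons, Gal3st1 was above Arsa at P18 (means of 556 against 68.3 normalized read counts) and at P75 (192 against 120). At 6 months they were close, at 162 ± 5.52 for Gal3st1 and 175 ± 9.35 for Arsa (SD, n = 3). At 24 months Gal3st1 was below Arsa, at 138 against 212. The windows below are built like those above, at chr11:3983386-3983685 (plus strand), the first of 3 RefSeq windows of Gal3st1, and at chr15:89477375-89477674 (minus strand) for Arsa in GRCm38.p6.
Gal3st1: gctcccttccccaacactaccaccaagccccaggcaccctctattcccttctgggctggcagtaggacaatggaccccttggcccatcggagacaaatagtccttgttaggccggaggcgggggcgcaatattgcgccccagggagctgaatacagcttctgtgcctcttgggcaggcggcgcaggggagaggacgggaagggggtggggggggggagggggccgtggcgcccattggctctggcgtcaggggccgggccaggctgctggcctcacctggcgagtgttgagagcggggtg
Arsa: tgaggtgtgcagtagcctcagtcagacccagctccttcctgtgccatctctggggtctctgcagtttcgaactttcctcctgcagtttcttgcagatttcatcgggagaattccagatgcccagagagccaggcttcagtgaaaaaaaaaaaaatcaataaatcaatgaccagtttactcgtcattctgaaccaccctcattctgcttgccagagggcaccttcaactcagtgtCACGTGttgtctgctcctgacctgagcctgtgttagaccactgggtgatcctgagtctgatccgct
The window of Arsa held 1 E-box, whose first base is at -16 from the transcript start, and no GC box, and the windows of Gal3st1 held neither. Among the 8 genes with a RefSeq window the E-box was found in 1 and the GC box in 6 (Ugt8a, Sptlc1, Sptlc2, Elovl1, Galc and Psap). Fa2h and Asah1 had no window in the table used.

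Gal3st1 was the gene with the largest fall over the whole span. It had normalized read counts of 1353, 1277 and 773 at P18 and of 326, 382 and 471 at P75. It had 329, 321 and 344 at 6 months, then 274, 282 and 286 at 24 months. Replicate 3 was again the lowest at P18 and still above all later libraries, and the 3 libraries at 24 months were below all others. The log2 change was -1.50 ± 0.168 (SE, adjusted p = 6.67e-06, limma) from P18 to P75, -1.76 without P18 replicate 3, and -1.97 ± 0.168 (adjusted p = 4.7e-08) from P18 to 24 months, a 3.91-fold fall. Its change from P75 to 6 months was -0.23 ± 0.168, in a comparison in which Ugt8a, Fa2h and Elovl1 rose, and the difference between these genes was not tested. From P75 to 24 months it fell by 0.47 (adjusted p = 0.0322), a call that was lost without P75 replicate 3 (adjusted p = 0.156, range over the alternatives 0.00183 to 0.156).

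Arsa rose at each step. It had 265, 247 and 242 normalized read counts at P18, 399, 465 and 458 at P75, 671, 605 and 656 at 6 months, then 704, 793 and 840 at 24 months. No library of one age overlapped with those of another. The log2 changes of the 3 steps were 0.80 ± 0.097, 0.55 ± 0.097 and 0.27 ± 0.097 (SE, adjusted p = 1.25e-05, 0.000198 and 0.0581, limma), and from P18 to 24 months the level rose 3.08-fold, the largest rise of the 10 genes. The call of the last step was lost when libraries were scaled to the same total (adjusted p = 0.228) and without 6 months replicate 2, 24 months replicate 2 or 24 months replicate 3 (adjusted p = 0.188, 0.157 and 0.180). The ratio of Gal3st1 to Arsa was 4.49 ± 1.12 (SD, n = 3) at P18, 0.889 ± 0.121 at P75, 0.515 ± 0.0216 at 6 months, then 0.362 ± 0.0252 at 24 months, with no overlap between any of the ages. This ratio is not corrected for exon length, and per kb Gal3st1 was above Arsa at P75.

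**Figure D2:**
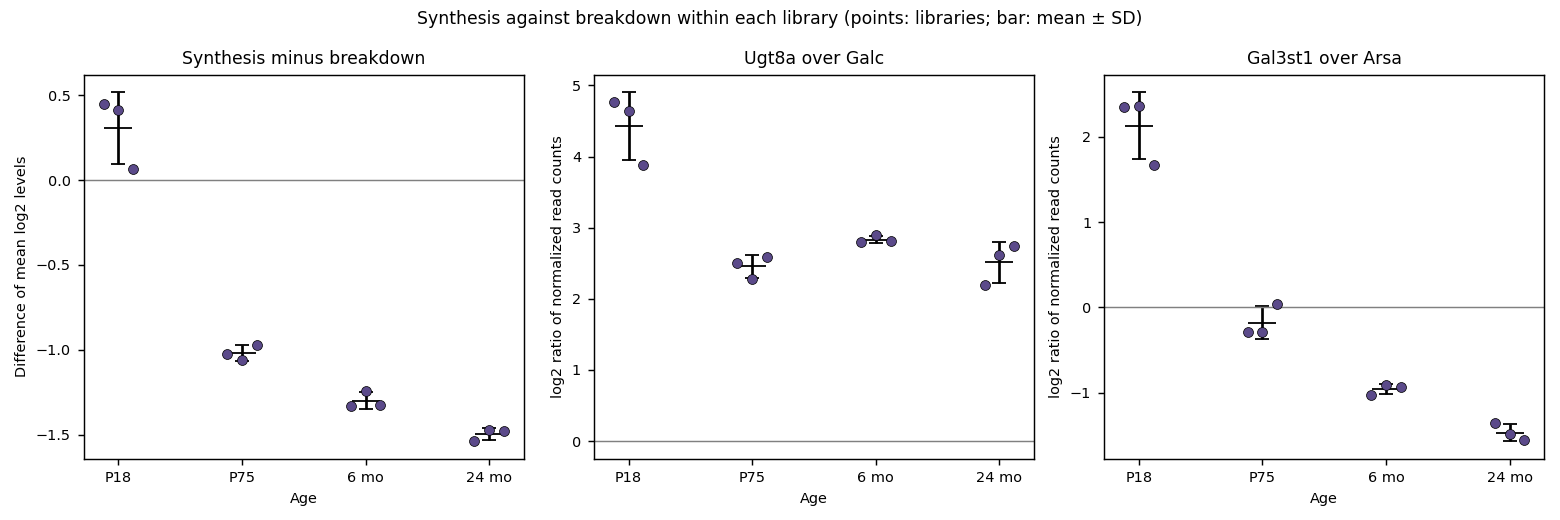
Synthesis against breakdown in each library, with age on the horizontal axis, points for the 12 libraries and bars for the mean ± SD of 3. The left panel gives the mean log2(normalized read count + 1) of the 6 synthesis genes minus that of the 4 breakdown genes, and the other panels the log2 ratio of Ugt8a to Galc and of Gal3st1 to Arsa. The left and right panels step down at every age, whereas Ugt8a over Galc drops from P18 to P75 and then stays between 2.19 and 2.89.

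The genes that act on the fatty acid, Fa2h and Elovl1, shared the fall from P18 to P75. Fa2h, the fatty acid hydroxylase, spans chr8:113869035-113917724 in NCBIM37 (minus strand, 8 merged exons). It had normalized read counts of 3019, 2867 and 2091 at P18, 1167, 1301 and 1369 at P75, 1674, 1729 and 1440 at 6 months, then 1145, 1381 and 1557 at 24 months. The P18 libraries were above all others, and those at 24 months overlapped with P75 and with 6 months. The changes were -1.04 ± 0.135 from P18 to P75 (SE, adjusted p = 2.37e-05, limma, and -1.20 without P18 replicate 3), 0.33 ± 0.135 to 6 months (adjusted p = 0.0461) and -0.25 ± 0.135 to 24 months (adjusted p = 0.193) on the log2 scale. The call at 6 months was lost without P75 replicate 1, 6 months replicate 1 or 6 months replicate 2 (adjusted p = 0.153, 0.123 and 0.142, range over the alternatives 0.00809 to 0.153).

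Elovl1, which elongates saturated very long fatty acids, spans chr4:118100698-118105558 (plus strand), and its 7 merged exons in part overlap exons of the cell cycle gene Cdc20 on the other strand. As for Arsa, counting by strand is not known, so the values and changes of Elovl1 are uncertain in this respect. Its normalized read counts were 871, 814 and 689 at P18, 353, 394 and 366 at P75, 498, 469 and 423 at 6 months, then 443, 522 and 558 at 24 months. It was lowest at P75, in all 3 libraries, and the 2 oldest ages overlapped. The log2 change was -1.09 ± 0.111 from P18 to P75 (SE, adjusted p = 3.04e-06, limma, and -1.18 without P18 replicate 3), 0.32 ± 0.111 to 6 months (adjusted p = 0.0238) and 0.13 ± 0.111 to 24 months (adjusted p = 0.438). At 24 months it was still 1.56-fold below P18 (adjusted p = 0.000104) and 1.36-fold above P75 (adjusted p = 0.00383).

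The subunits of serine palmitoyltransferase, the entry step, rose from P18 to P75, where the other 4 synthesis genes fell. In NCBIM37 Sptlc1 spans chr13:53428085-53472734 (minus strand, 16 merged exons) and Sptlc2 chr12:88646008-88729305 (minus strand, 13 merged exons). Sptlc1 had 541, 541 and 488 normalized read counts at P18, 619, 592 and 635 at P75, 851, 763 and 779 at 6 months, then 840, 910 and 1006 at 24 months. Sptlc2 had 366, 333 and 344 at P18, 439, 413 and 468 at P75, 512, 517 and 505 at 6 months, then 638, 602 and 529 at 24 months. For Sptlc2 no age overlapped with another, and for Sptlc1 only 6 and 24 months did. The rise over the whole span was 1.75-fold for Sptlc1 and 1.69-fold for Sptlc2 (adjusted p = 8.47e-07 and 2.67e-06, limma).

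The single steps of both subunits were small. Sptlc1 changed by 0.23, 0.37 and 0.20 on the log2 scale (SE 0.089, adjusted p = 0.0459, 0.00228 and 0.12, limma), and Sptlc2 by 0.34, 0.22 and 0.20 (SE 0.093, adjusted p = 0.00817, 0.0576 and 0.132). The first call of Sptlc1 was lost without P18 replicate 3 or P75 replicate 3 (adjusted p = 0.125 and 0.117). The 6 months call of Sptlc2 was lost under 7 alternatives, a scaling to the same total among them (adjusted p = 0.149, range over the alternatives 0.0447 to 0.182). The ratio of Sptlc1 to Sptlc2 was 1.51 ± 0.105 (SD, n = 3) at P18, 1.40 ± 0.0394 at P75, 1.56 ± 0.0934 at 6 months, then 1.58 ± 0.297 at 24 months. The libraries at 24 months spanned the values of all other ages, and P75 and 6 months were the only ages that did not overlap.

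Psap, the precursor of the saposins, was by far the most abundant of the 10 genes. It spans chr10:59740375-59765345 in NCBIM37 (plus strand, 16 merged exons). It had normalized read counts of 15436, 15506 and 15694 at P18, 22138, 26067 and 25401 at P75, 35494, 33611 and 33552 at 6 months, then 37813, 39060 and 42122 at 24 months. The ages did not overlap. The steps were 0.65 ± 0.110, 0.48 ± 0.110 and 0.21 ± 0.110 on the log2 scale (SE, adjusted p = 0.000219, 0.00161 and 0.184, limma), of which the last passed with DESeq2 alone (adjusted p = 0.0319). From P18 to 24 months Psap rose 2.55-fold (adjusted p = 2.79e-08).

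Asah1, acid ceramidase, spans chr8:42425551-42460127 in NCBIM37 (minus strand, 13 merged exons). It had 687, 635 and 617 normalized read counts at P18, 833, 750 and 869 at P75, 1750, 1588 and 1535 at 6 months, then 1566, 1786 and 1840 at 24 months. Unlike the gradual course of Arsa and Psap, most of its rise lay between P75 and 6 months, and the 2 oldest ages overlapped. The log2 changes were 0.34 ± 0.091, 0.99 ± 0.091 and 0.09 ± 0.091 (SE, adjusted p = 0.0072, 5.71e-07 and 0.511, limma). The ratio of Sptlc1 to Asah1, the entry into ceramide synthesis against the exit from ceramide, was 0.810 ± 0.0364 and 0.754 ± 0.0306 (SD, n = 3) at P18 and P75, and 0.492 ± 0.0144 and 0.531 ± 0.0191 at 6 and 24 months. The libraries of the 2 younger ages were all above those of the 2 older ages. The ratio is not corrected for exon length. Per kb of merged exons Sptlc1 was above Asah1 at P18 in all 3 libraries (means of 200 and 191), although their ranges overlapped.

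**Figure D3:**
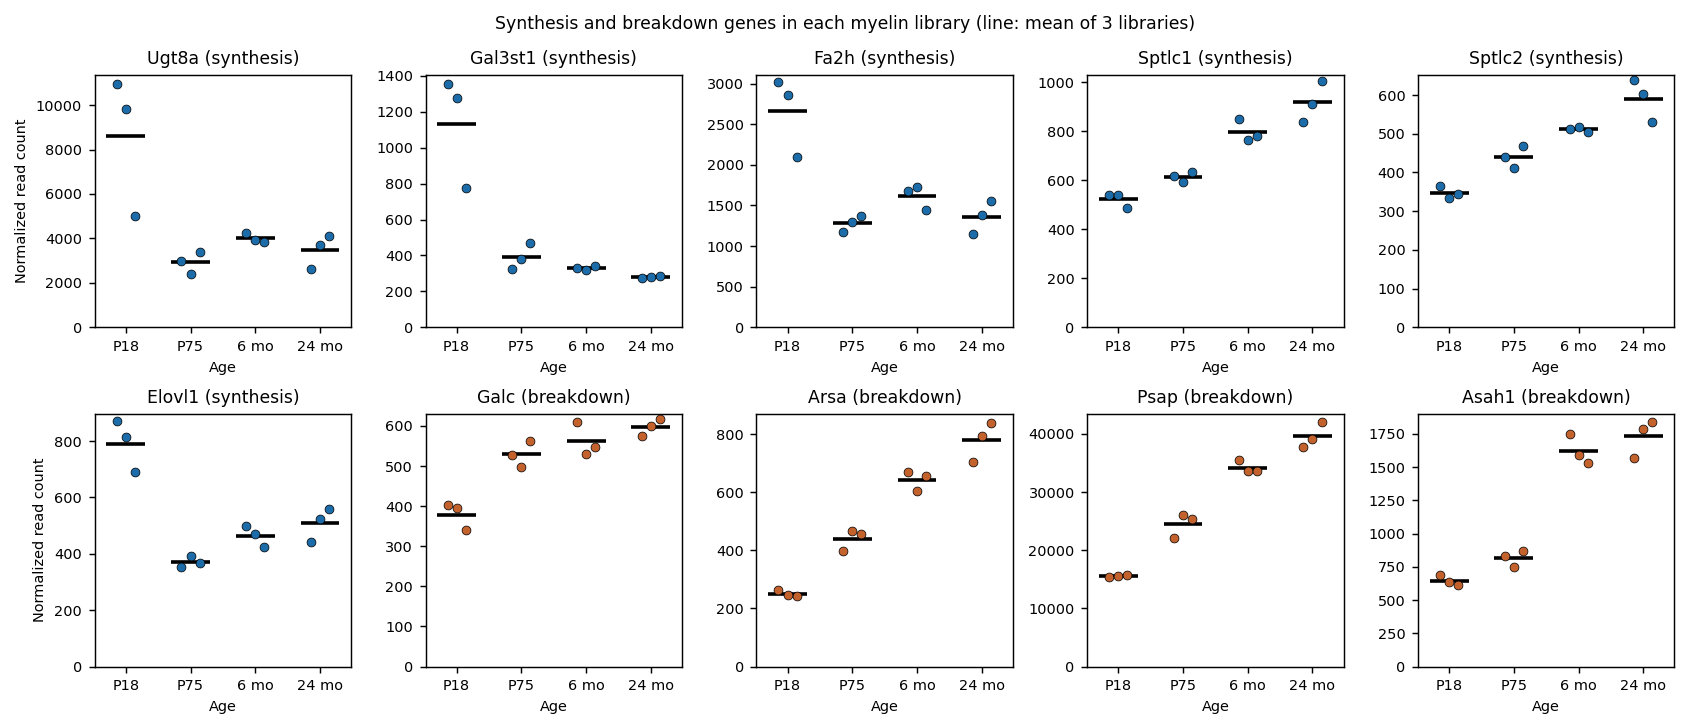
Normalized read count of each of the 10 genes in every library, with age on the horizontal axis, 1 point per library and a line at the mean of 3 libraries. Each vertical axis starts at 0, with blue for synthesis and orange for breakdown. Ugt8a, Gal3st1, Fa2h and Elovl1 are highest at P18, and the other 6 genes are lowest there.

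Levels of different genes can be compared only per length, here as normalized read count per kb of merged exons. Psap was first at every age, with means of 5696 at P18, 8991 at P75, 12539 at 6 months, then 14535 at 24 months, and Ugt8a second, with 2400, 816, 1119 and 969. Sptlc2 was last of the 10 at every age, at 42.8 to 72.7 per kb. Its merged exons span 8115 bases, the longest of the 10, and which transcript forms were present was not analysed here.

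Between these the order turned over with age. At P18 the next places were held by synthesis genes, Fa2h (884 ± 165 per kb, SD, n = 3), Gal3st1 (556 ± 154) and Elovl1 (290 ± 34.1), and Arsa was in place 9 (68.3 ± 3.26). At 24 months Asah1 was in place 3 (511 ± 42.8) and Gal3st1 in place 9 (138 ± 2.90). Neighbours in the order whose libraries overlapped were Sptlc1 and Asah1 at P18. At P75 they were Asah1 and Sptlc1, Sptlc1 and Gal3st1, and Galc and Elovl1. At 6 months they were Fa2h and Asah1, and the adjacent places from Arsa over Elovl1 and Gal3st1 to Galc. At 24 months they were Asah1 and Fa2h, Fa2h and Sptlc1, and Arsa and Elovl1. These orders are not larger than the spread between libraries. Compared within each library, the higher gene of most of these pairs was above the other in all 3 libraries. The exceptions were Asah1 over Sptlc1 and Galc over Elovl1 at P75, in 2 libraries each. At 6 months they were Arsa over Elovl1, in 1 library, and Elovl1 over Gal3st1, in 2.

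**Figure D4:**
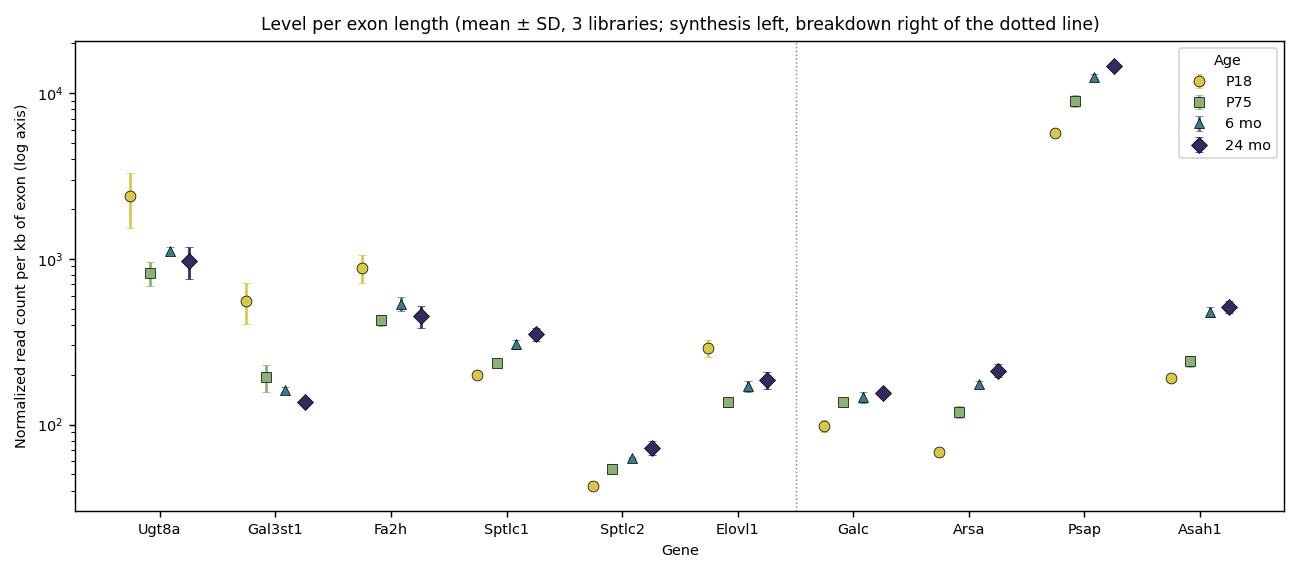
Normalized read count per kb of merged exons (log axis) for each gene, with the mean ± SD of 3 libraries at each of the 4 ages. Psap is highest at every age, from 5696 to 14535, and Sptlc2 lowest, from 42.8 to 72.7. Gal3st1 steps down and Arsa steps up with age.

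Averaged as groups within each library, the mean log2 level of the 6 synthesis genes minus that of the 4 breakdown genes was 0.31 ± 0.21 (SD, n = 3) at P18, -1.02 ± 0.05 at P75, -1.30 ± 0.05 at 6 months, then -1.50 ± 0.04 at 24 months. Its zero depends on the lengths of the genes and has no meaning, whereas its shift between ages does not depend on them. The shift was -1.33 from P18 to P75, -0.28 to 6 months and -0.20 to 24 months, and libraries of different ages did not overlap. This is given without a test. With the median over the genes in place of the mean the last shift was 0.0332, so its direction from 6 to 24 months depended on how the genes were averaged.

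The fall of the galactolipid genes went along with that of the structural myelin genes. Of 10 structural myelin genes, Mbp among them, 8 fell and 2 did not pass from P18 to P75, where 22.9% of all genes fell. Their median log2 change was -1.12 (median of all genes tested 0.02), and their summed normalized read count was 2486148 to 6209204 at P18 and 1286062 to 1857399 at P75. Most of this sum was Mbp, with a mean of 2002431 over the 12 libraries, against 144654 for Mobp, the next of the list. P18 replicate 3 had the lowest sum of its age, as it had the lowest Ugt8a, Gal3st1, Fa2h and Elovl1. Measured against the mean log2 level of the structural genes in the same library, Fa2h was at -3.52 ± 0.15 (SD, n = 3) at P18 and -3.54 ± 0.16 at P75, and Elovl1 at -5.25 ± 0.26 and -5.32 ± 0.16, differences within the spread. Ugt8a went from -1.88 ± 0.24 to -2.36 ± 0.17 and Gal3st1 from -4.77 ± 0.10 to -5.26 ± 0.28 by the same measure. The 6 markers of oligodendrocyte precursors and newly formed oligodendrocytes summed to 4117 to 4212 at P18 and 2420 to 2652 at P75. In RNA from a whole fraction, fewer cells or sheaths of a kind and less RNA in each cannot be told apart.

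Cholesterol synthesis, the other large lipid pathway of myelin, had 11 tested genes of 12. In the first step, to P75, 1 rose and 6 fell (median -0.62), in the second, to 6 months, 6 rose and 2 fell (median 0.34), and in the last 1 rose and 1 fell (median -0.07). Of all genes 25.9% rose and 22.9% fell in the first step, 31.2% and 29.4% in the second, and 16.6% and 12.7% in the last. The medians of the 6 synthesis genes were -1.06, 0.33 and -0.05 in the same comparisons.

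The rise of the breakdown genes went along with that of other lysosomal genes and of microglial markers. Of 18 other lysosomal genes, such as cathepsins and Lamp1, 15 rose in the first step, 16 in the second and 10 in the last, with medians of 0.61, 0.57 and 0.29, and the rest did not pass. Among all genes, 25.9% rose and 22.9% fell in the first step, 31.2% and 29.4% in the second, 16.6% and 12.7% in the last. These shares also apply to the marker lists that follow. The medians of the 4 breakdown genes were 0.57, 0.52 and 0.15. Scaled to the same total, 4 of the 18 rose in the last step, as did 1394 of the 14634 genes tested. Of the 10 microglial markers 6 rose in the first step, 7 rose and 1 fell in the second, and 4 rose in the last. Their summed normalized read count was 4478 to 5164 at P18, 5727 to 6139 at P75, 7199 to 8389 at 6 months, then 9960 to 12437 at 24 months, with all 10 above 0 in every library. Their part in the rise of Arsa, Psap and Asah1 was not tested. The 8 neuronal markers summed to 147338 to 182431 at P18, 185363 to 212460 at P75, 167852 to 173215 at 6 months, then 159827 to 164203 at 24 months, so that every P75 library was above all others. Of these markers 2 rose and 2 fell in the first step, 5 rose and 2 fell in the second with log2 changes of -0.68 to 2.34, and 2 fell in the last. Their counts in the first step were near the shares of all genes. The 7 astrocytic markers summed to 95390 to 115259 at P18, 101582 to 107166 at P75, 96780 to 108828 at 6 months, then 95253 to 104309 at 24 months, and the ages overlapped. Of these 2 fell in the first step, 2 rose and 1 fell in the second, and 1 rose in the last. The part of both lists in the changes of the 10 genes was not tested.

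The wider pathway was read from lists of 32 other genes of synthesis, control and transport and 25 other genes of breakdown and salvage, of which 29 and 24 were abundant enough to test. From P18 to P75, 8 of the other synthesis genes rose, 6 fell and 15 did not pass (median log2 change 0.15, all genes 0.02). These 14 calls among 29 genes were near the share of all genes, of which 48.8% were called, 25.9% higher and 22.9% lower. Scaled to the same total, 11 of the other synthesis genes rose and 3 fell, and Cerk was no longer called (adjusted p = 0.345). Gltp, which transfers glycolipids between membranes, fell from 6021 ± 1760 to 2025 ± 64.9 normalized read counts (SD, n = 3), a change of -1.53 (adjusted p = 3.67e-06, limma). Lass2 (Cers2), the ceramide synthase for very long fatty acids, fell by 0.46 on the log2 scale (adjusted p = 0.00131) and the ceramide kinase Cerk by 0.26 (adjusted p = 0.0197). In contrast Ugcg, which couples glucose in place of galactose to ceramide, rose from 1257 ± 83.5 to 1993 ± 116 (0.67, adjusted p = 3.06e-05). Kdsr, which acts on the product of serine palmitoyltransferase, rose by 0.79 (adjusted p = 3.39e-06), the ceramide synthase Lass4 (Cers4) by 0.79 (adjusted p = 1.9e-05), and Ormdl1, an inhibitor of serine palmitoyltransferase, by 0.76 (adjusted p = 0.00132).

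Within a library, the ratio of Ugt8a to Ugcg, the branch point between galactosylceramide and glucosylceramide, was 6.96 ± 2.84 (SD, n = 3) at P18, 1.46 ± 0.190 at P75, 1.57 ± 0.103 at 6 months, then 1.09 ± 0.176 at 24 months. It was at least 3.72 in every library at P18 and at most 1.69 in any later library.

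Among the other breakdown genes 16 rose, 3 fell and 5 did not pass from P18 to P75 (median 0.48), where 25.9% of all genes rose and 22.9% fell. Hexa, which acts in the trimming of gangliosides, rose from 602 ± 66.5 to 955 ± 16.7 normalized read counts (log2 change 0.67, adjusted p = 0.00031, limma). Sumf1, which activates sulfatases such as Arsa, rose by 0.64 (adjusted p = 0.000173), and the sphingosine-1-phosphate phosphatase Sgpp2 by 0.72 (adjusted p = 9.15e-05). Those that fell were the sialidase Neu4 by 1.10 (adjusted p = 2.59e-06), the sphingosine kinase Sphk2 by 0.49 (adjusted p = 0.00243) and Gm2a, an activator protein of ganglioside breakdown, by 0.40 (adjusted p = 0.000835).

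From P75 to 6 months 18 other synthesis genes rose and 2 fell, with 9 that did not pass (median 0.33, all genes 0.01). Of all genes 31.2% rose and 29.4% fell in this comparison. The ganglioside synthases St3gal5, St8sia1 and B4galnt1 rose by 0.99, 1.06 and 0.79 on the log2 scale (adjusted p = 7.22e-07, 1.91e-06 and 3.26e-06, limma), and Samd8, which makes a sphingomyelin analogue, by 0.84 (adjusted p = 3.34e-06). The genes that fell were both small subunits of serine palmitoyltransferase, 1110002B05Rik (Sptssa) by 0.70 (adjusted p = 0.00346) and 1110032A04Rik (Sptssb) by 0.56 (adjusted p = 0.000854), whereas the large subunits Sptlc1 and Sptlc2 rose in the same comparison. Of the other breakdown genes 11 rose, 3 fell and 10 did not pass (median 0.21). Asah2, the neutral ceramidase, rose from 177 ± 37.8 to 525 ± 56.5 normalized read counts (1.58, adjusted p = 1.19e-06), alongside the acid ceramidase Asah1, and the galactosidase Gla and the acid sphingomyelinase Smpd1 rose by 1.10 and 0.75 (adjusted p = 5.33e-06 and 3.45e-06). Sgpp2 rose again, by 0.73 (adjusted p = 4.53e-05). Neu4 fell further, by 0.54 (adjusted p = 0.000759), and the neutral sphingomyelinases Smpd4 and Smpd2 fell by 0.93 and 0.44 (adjusted p = 1.7e-05 and 0.00418).

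From 6 to 24 months 7 of the 29 other synthesis genes rose and 2 fell (median 0.11, all genes 0.03), and 7 of the 24 other breakdown genes rose while 17 did not pass (median 0.13). For both lists the part called in either direction was near the 29.3% of all genes, of which 16.6% were higher and 12.7% lower. Scaled to the same total, 2 other synthesis genes rose and 2 fell, and Ormdl1 and 1110032A04Rik were no longer called (adjusted p = 0.111 and 0.132). Kdsr, Ormdl1 and Lass4 rose by 0.47, 0.42 and 0.40 on the log2 scale (adjusted p = 0.00195, 0.074 and 0.0115, limma), and 1110032A04Rik by 0.37 (adjusted p = 0.0373). Cerk fell by 0.30 (adjusted p = 0.0226) and St8sia1 by 0.27 (adjusted p = 0.0958). Hexa rose from 1305 ± 20.9 to 1836 ± 361 normalized read counts (log2 change 0.47, adjusted p = 0.0123), the alkaline ceramidase Acer3 by 0.50 (adjusted p = 0.00442), and Smpd4 by 0.71 (adjusted p = 0.00215).

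**Figure D5:**
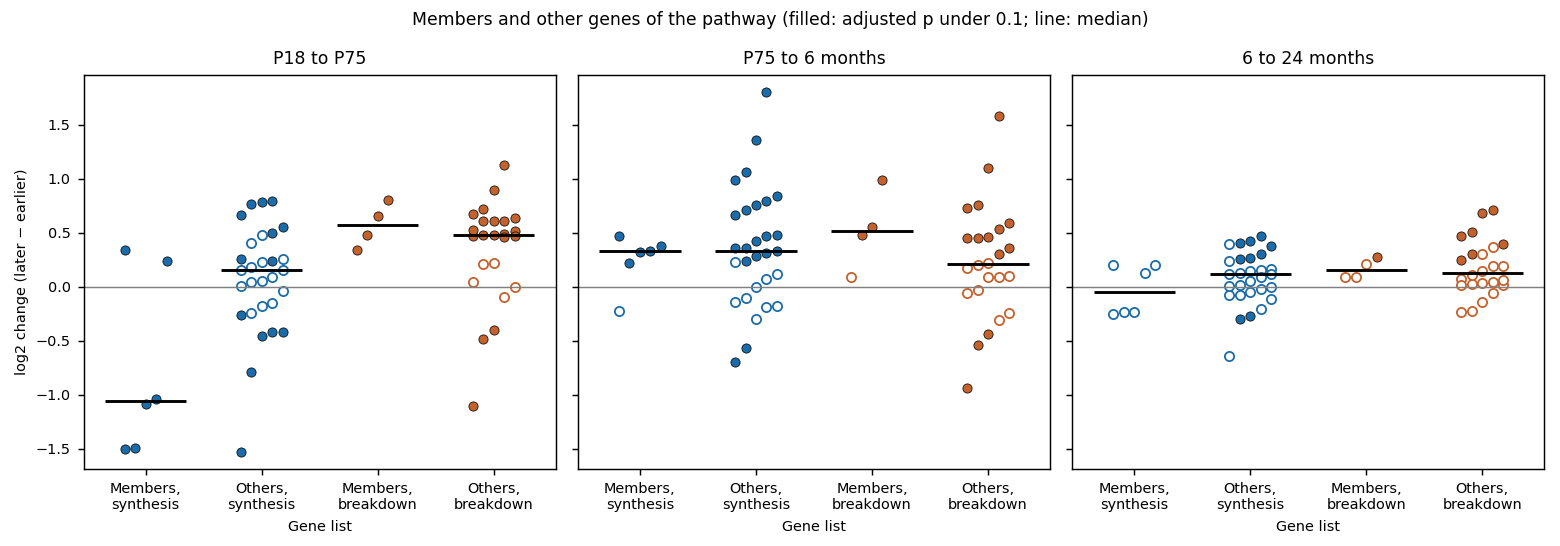
Log2 change, later minus earlier, of each tested gene in the 3 consecutive comparisons, for the 6 synthesis and 4 breakdown genes (members) and for the 29 other synthesis and 24 other breakdown genes of the pathway. Filled points have an adjusted p under 0.1 (limma) and lines mark medians. From P18 to P75 the median of the 6 synthesis genes is -1.06 and that of the other synthesis genes 0.15, whereas the medians of the breakdown lists are 0.57 and 0.48.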

How the data were processed

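RNA of purified brain myelin from mice of 4 ages was sequenced, with 3 libraries per age. Per the submitters' processing notes, TopHat2 2.0.8, SAMtools 0.1.19, HTSeq 0.5.4p1 and DESeq were used with the mouse build mm9. The deposited signal is the read count per gene as the authors divided it by DESeq size factors. Within a library all values (100%) were whole multiples of 1 read to within 0.1, which gave the recovered reads and the depth. The age of each library was taken from its labels.

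Ages were compared with limma 3.58.1 in R 4.3.3 with a mean-variance trend, on the log2 of the normalized read count plus 1. All 12 libraries entered 1 fit, and the 14634 genes whose mean reached 10 were tested. Calls used the study's false discovery rate of 0.1, with Benjamini-Hochberg adjustment over all tested genes. Fold changes are on that log2 scale and understate the change of low genes. All 5 comparisons draw on the same libraries, so they are not independent of each other. The 10 genes and the lists were chosen with earlier results of these data known, and named genes of the wider lists were up to 4 with the largest rise and 4 with the largest fall per consecutive comparison, among called genes whose libraries did not overlap and whose mean passed 100 at either age. For genes of like profile, the 5 genes with the smallest root mean square difference from each group's centred log2 profile were taken.

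Other settings tried were pseudocounts of 0.5 and 10, all genes or those with means over 100, fits of 2 ages at a time, a block for the replicate number, scaling to a same total or by quantiles, edgeR 4.0.16 and DESeq2 1.42.0 run on recovered reads, calls at 0.05, and leaving out each library. The fits were tested on simulated data. Same-numbered libraries at P75 and 6 months deviated together (r of 0.101 to 0.187 over genes, mean 0.150). At the other pairs of ages the mean r was -0.11 to 0.05, with a single value of up to 0.163 at P18 and 6 months. No mouse was sampled at more than 1 age, so the replicate number was not used as a block in the main design. An exact test of 3 against 3 cannot go below a p of 0.1. For ages other than 6 months the sources used here do not say that the libraries came from separate mice, so p-values measure the spread between these libraries, which may be technical.

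Exons were merged per gene from GENCODE annotation of NCBIM37 (mm9). Promoter windows came from RefSeq (GRCm38.p6), with windows for all but 2 of the 10 genes, and older symbols were matched through RefSeq synonyms. Results on some genes are not reported here.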

Additional observations from a re-analysis of the deposited data

How the results depend on the processing

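Of 1150 changes of the 10 genes recomputed under the alternatives, 1108 kept their direction and their side of the threshold, 29 were no longer called, 12 became called and 1 reversed. The reversed value was Fa2h from P75 to 24 months, -0.0213 without 24 months replicate 3, within a range of -0.0213 to 0.200 with 1 library left out, a change that was not called. Of the 36 called changes 30 were called under every alternative and 0 reversed. Scaled to the same total, the median log2 change of all genes from P18 to P75 was 0.14 in place of 0.02, and 4739 genes were called higher and 1827 lower in place of 3783 and 3354. The 10 genes kept their directions and calls in that comparison. With quantile normalization the median of all genes from P18 to 24 months was -0.12.

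The number of the 10 genes called from P75 to 6 months was 8, and 5 to 9 with 1 library left out. From 6 to 24 months it was 1, and 3 in a fit of only these 2 ages, 0 with a same total, 3 with edgeR, 2 with DESeq2, 0 at a false discovery rate of 0.05 and 0 to 3 with 1 library left out. All genes called from 6 to 24 months numbered 4287 (2435 higher, 1852 lower), 2856 at a false discovery rate of 0.05, 3008 with a same total (1394 higher, 1614 lower), and 2478 to 5323 with 1 library left out, where P18 replicate 3 gave the highest count. The cause was not tested. With medians over the genes, synthesis minus breakdown shifted by -0.34 in place of -0.28 from P75 to 6 months, 0.0332 in place of -0.20 from 6 to 24 months, -1.56 in place of -1.80 from P18 to 24 months and -0.31 in place of -0.48 from P75 to 24 months.

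In fits that block on the replicate number, 10, 7 and 1 of the 10 genes were called in the 3 consecutive comparisons, with Ugt8a from P75 to 6 months as the single call that the block changed (adjusted p = 0.109), and 10 and 7 from P18 and from P75 to 24 months. All genes called under the block numbered 6968, 8695 and 3996 in the consecutive comparisons, 10005 from P18 to 24 months and 7852 from P75 to 24 months. The 10 genes rest on at least 219 reads per library, and having 3 libraries per age limits the precision of each change.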

Other observations

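The genes whose course over the 12 libraries lay nearest to the mean of the 6 synthesis genes, among 11295 others with a mean of at least 100, were Cpox, Mpzl1, Mcl1, Igsf1 and Tspan15, with root mean square differences of 0.071 to 0.117 on the log2 scale. Cpox is an enzyme of haem synthesis. Of the 6 genes themselves Elovl1 and Fa2h were nearest to that mean, at 0.150 and 0.165, and Gal3st1 furthest, at 0.560, followed by Sptlc2 at 0.530 and Sptlc1 at 0.523, so the mean stands for the group only in part. For the 4 breakdown genes the nearest were Txndc16, Tmed10, Ganab, Cdh11 and Pcdh10, at 0.0567 to 0.0695. Ganab is a glucosidase and Tmed10 a cargo carrier of the secretory pathway. Psap itself was at 0.0632 and Galc at 0.269.

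Sptlc3, an alternative subunit of serine palmitoyltransferase, had a mean of 2.49 normalized read counts over the 12 libraries, Elovl3 of 2.74 and the alkaline ceramidase Acer1 of 1.85, all below the filter. The ceramide synthase Lass1 (Cers1) is listed at 0 in every library, as is Hmgcs1 of the cholesterol synthesis list. Whether the mRNA was missing or its reads were not counted was not tested.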
